A study of Mus musculus with 16 samples.

Results

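The 4 h response of naive CD4 T cells to stimulation through the T cell receptor and CD28 was compared between wild-type and Tsc1-deficient mice. For each gene the wild-type change from 0 h to 4 h was subtracted from the Tsc1-deficient change. The result, the genotype by stimulation interaction, is given on the log2 scale: a value of 1 means that the 4 h to 0 h ratio was 2-fold higher in deficient cells, and a value of -1 that it was 2-fold lower. The comparison used 12 of the 16 arrays of the study, 3 in each of 4 groups, and 17097 genes with 1 probe set each. The question was which genes responded more or less in the absence of Tsc1, and in which of these the genotypes already differed before stimulation.

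All mice had a C57BL/6 background, and naive T cells were sorted from them. The unstimulated (0 h) CD4 groups were wild-type and Tsc1-deficient cells that had received no stimulus. The stimulated (4 h) groups were cells of the same genotypes held in Click medium on plate-bound antibodies to CD3 and CD28 for 4 h. The other 4 arrays held unstimulated CD8 cells, 2 of each genotype. One sentence on treatment in the labels speaks of a strain lacking HIF1a, whereas genotype entries and titles give Tsc1. What drives the deletion, and the age and sex of the mice, are not given in the sources used here. Nothing in the labels ties the 3 arrays of a group to different mice, so p-values measure the spread between arrays, which may be technical.

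TSC1 is the partner of TSC2 in the complex that switches off the GTPase Rheb and so restrains mTORC1, the kinase complex that couples nutrient and growth factor signals to protein synthesis and metabolism. Naive T cells are small, quiescent cells. Within hours of engagement of the receptor and CD28, they switch on cytokines, cytokine receptors and transcription factors through NFAT, NF-kB, AP-1 and EGR factors, and lose transcripts of the resting state.

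The targeted gene was examined first. Tsc1 signal was 7.25, 7.39 and 7.29 on the unstimulated and 7.54, 7.37 and 7.45 on the stimulated wild-type arrays, against 6.42, 6.54 and 6.5 and 6.22, 6.46 and 6.5 on the deficient arrays. Every deficient array lay below every wild-type array at both times, in the direction of the labels. It is not known here whether this probe set reads the part that was removed. Its interaction of -0.24 ± 0.13 (SE, n = 3 arrays per group) did not pass the test (adjusted p = 0.533). Cd3e, a subunit of the receptor complex, and Cd4 were bright at rest in both genotypes, at group means of 9.78 and 9.73 for Cd3e and 8.95 and 8.98 for Cd4. Cd8b1 was also detected, at 8.33 and 8.18, and Cd8a at 6.42 and 5.58. Of 5 CD8 T cell markers, 2 were called lower and 0 higher in resting deficient cells, compared with 1.87% and 3.96% of all genes. Their median resting difference was -0.46, and their part in the results below was not tested. Neutrophil markers averaged 3.11 to 3.76 over 13 genes on unstimulated wild-type arrays and 3.90 to 5.28 on unstimulated deficient ones. After 4 h these ranges were 2.99 to 3.38 and 3.91 to 5.09. None of the 13 was called for the interaction, and the part of these markers in the results below was not tested. The 3′ minus 5′ Gapdh control signal, a measure of RNA integrity, was 0.96 on stimulated deficient replicate 1 and at most 0.40 on the other CD4 arrays and on all CD8 arrays except deficient replicate 2, where it was 0.64. Less RNA per cell and fewer cells of a type cannot be told apart in these bulk samples.

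Most genes responded alike. Stimulation changed 5451 genes (31.9%) in wild-type and 6041 genes (35.3%) in deficient cells at an adjusted p under 0.05 (limma with Benjamini-Hochberg adjustment over all genes). The responses differed in 206 genes (1.2%). The interaction was positive in 93 of them (0.544%) and negative in 113 (0.661%). Of the 206, 78 (0.456%) reached a 2-fold difference between the responses, 39 in each direction. Their median absolute interaction was 0.89, and the median over all genes was -0.01. At an unadjusted p under 0.05 there were 2017 genes. In 157 of the 206 genes all 4 group means lay above the table's median signal of 3.36, and in 49 at least 1 group fell below it, where signal approaches background. The number moved with single arrays: it was 115, 109, 112, 115 and 103 without unstimulated wild-type replicate 1, unstimulated wild-type replicate 2, stimulated wild-type replicate 2, unstimulated deficient replicate 1 and unstimulated deficient replicate 2, respectively. Of the 206 genes, 82 were called in each of the 12 fits that left out 1 CD4 array, 36 positive and 46 negative.

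**Figure D1:**
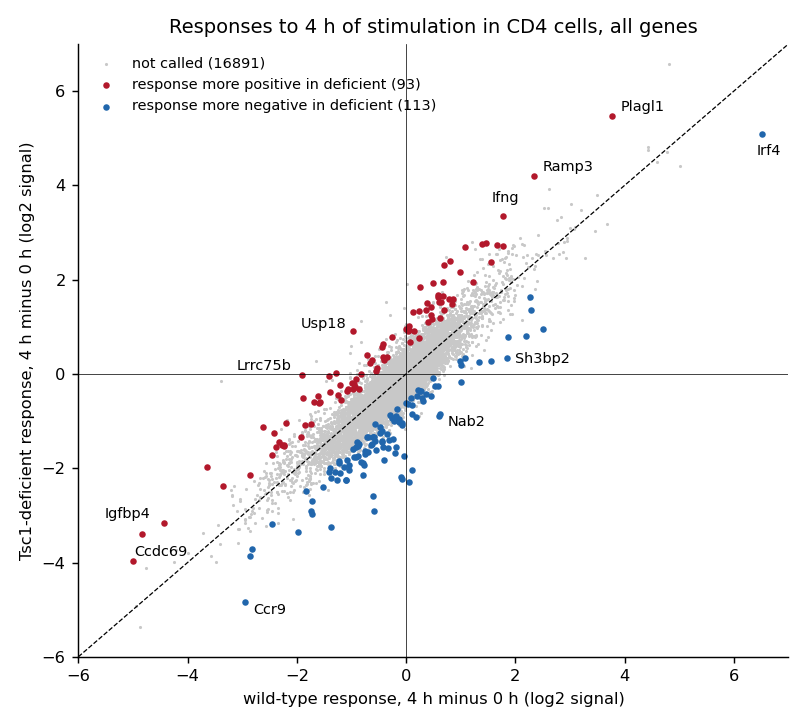
Change in log2 signal from 0 h to 4 h in wild-type (horizontal axis) and Tsc1-deficient CD4 cells (vertical axis), 1 point per gene, as differences of group means over 3 arrays each. The dashed line marks equal responses. The 93 genes with a positive interaction lie above it and the 113 with a negative interaction below it, and most genes lie along it.

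The sign of the interaction does not by itself say whether a response was larger. Among the 93 genes with a positive interaction, 29 rose in both genotypes and rose further in deficient cells, and 14 rose in deficient cells with a wild-type response that was not called. Another 29 fell in both genotypes but fell less in deficient cells, and 15 fell in wild-type cells with no call in deficient cells. The other 6 changed in opposite directions. Among the 113 genes with a negative interaction, 60 fell in both genotypes and fell further in deficient cells, and 33 fell in deficient cells alone by these calls. The smaller inductions were few: 8 genes rose in both genotypes but less in deficient cells, 8 rose in wild-type cells alone and 4 changed in opposite directions.

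Strongly regulated genes were then taken on the mean response of both genotypes, a measure that the interaction does not enter. At least 2-fold, 465 genes (2.72%) were induced and 1167 (6.83%) repressed, 9.55% of all genes together. The median induction was 1.30 in wild-type and 1.48 in deficient cells, with a median interaction of 0.17. The median repression was -1.37 and -1.49, with a median interaction of -0.10. Of the induced genes, 26 were called with a positive and 7 with a negative interaction. Of the repressed genes, 23 were called positive and 51 negative. In either direction, 7.1% of the induced and 6.3% of the repressed genes were called, compared with 1.2% of all genes. The 95% interval of the interaction lay within a 2-fold difference either way for 327 induced genes (70.3%) and 937 repressed genes (80.3%), compared with 94.3% of all genes. Most strong responses were therefore alike in both genotypes to within 2-fold, and the others were not resolved or differed.

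Among the 6 genes with the largest mean induction, the orphan nuclear receptor gene Nr4a3 rose 27.5-fold in wild-type and 26.2-fold in deficient cells, with an interaction of -0.07 (95% interval -0.71 to 0.57). Its relative Nr4a2 had an interaction of 0.39, with an interval of -0.93 to 1.71 that leaves a 2-fold difference possible. Il2, the T cell growth factor, was 6.51, 7.09 and 7.78 on stimulated wild-type arrays and 6.71, 6.87 and 6.82 on stimulated deficient arrays, from 2.02 to 2.47 at rest. The stimulated groups overlapped, and the interaction of -0.61 ± 0.29 did not pass the test (adjusted p = 0.429). Cxcl10, a chemokine for CXCR3-bearing cells, reached 8.19, 7.67 and 9.04 in the wild type, against 9.03, 9.71 and 10.54 in deficient cells, an interaction of 1.75 ± 0.52 that did not pass after adjustment (adjusted p = 0.144). With the Gapdh difference as a covariate it passed (2.11, adjusted p = 0.0396). On the repressed side, Dtx1, an E3 ligase of the Notch pathway, fell 30.7-fold and 30.1-fold, with an interaction of 0.03 (interval -0.37 to 0.43). Slc16a5, a monocarboxylate transporter family member, was called (1.03 ± 0.24, adjusted p = 0.0457), but both stimulated groups, at 2.23 to 2.65 and 2.17 to 2.69, lay below the table's median signal, so the extent of its fall was not measured. Its call was lost in 9 of the 12 fits that left out 1 array (adjusted p up to 0.12) and with the Gapdh difference as a covariate (adjusted p = 0.078).

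The 206 genes were separated by where the genotypes differed. The genotype difference was called at 0 h for 997 genes (5.83%), 3.96% of all genes higher and 1.87% lower in deficient cells. At 4 h it was called for 1616 genes (9.45%), 5.59% higher and 3.86% lower. Without unstimulated wild-type replicates 2 or 3, or unstimulated deficient replicates 1 or 2, the count at 0 h was 625, 606, 589 and 610, and without stimulated wild-type replicate 2 that at 4 h was 1062. The interaction is the second difference minus the first and shares its arrays with both, so the classes describe the 206 genes and are no further test. A difference was called at 4 h but not at rest for 120 genes, 59 with a positive and 61 with a negative interaction. All 59 were higher in deficient cells at 4 h, with median differences of -0.04 at rest and 0.97 at 4 h. All 61 were lower, with medians of 0.10 and -0.76. A difference was called at rest but not at 4 h for 55 genes, 19 with a positive and 36 with a negative interaction. The 36 were higher in unstimulated deficient cells, with a median difference of 1.03 that was 0.09 at 4 h. The 19 were lower at rest, with medians of -0.64 and 0.18. In these 55 genes the responses differed while the stimulated levels were not called different. With 1 array left out, the 120 became 61 to 185, lowest without stimulated wild-type replicate 2 and highest without stimulated deficient replicate 3, and the 55 became 29 to 56, lowest without unstimulated deficient replicate 2.

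The remaining genes differed at both times or at neither. The difference kept its sign in 16 genes, 7 with a positive and 9 with a negative interaction. It narrowed in 3 of the 7 and in 7 of the 9. It changed sign in 14 genes, 8 positive and 6 negative, and 1 gene, Smim4, passed at neither time. With 1 array left out, 7 to 20 genes kept and 3 to 21 changed the sign of the difference.

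The interaction does not use the 4 unstimulated CD8 arrays. The classes were chosen by whether a resting CD4 difference was called, so the CD8 counts describe that resting difference and not the interaction. The share among all genes called at rest in CD4 cells was not counted. In CD8 cells 995 genes (5.82%) differed by genotype, 622 higher (3.64%) and 373 lower (2.18%) in deficient cells. Of the 36 genes that were higher in resting deficient CD4 cells, had a negative interaction and were not called at 4 h, 22 were called higher in deficient CD8 cells and 0 lower, with a median difference of 0.65. Of the 19 that were lower at rest and had a positive interaction, 8 were called lower and 0 higher, with a median of -0.46. Of the 61 genes lower only after stimulation, 2 were called higher and 0 lower, and of the 59 higher only after stimulation 1 was called each way, with medians of 0.02 and 0.03. Fam221a, Patl2 and Trpm1 were higher in deficient CD8 cells by 3.45, 2.66 and 3.11 on the log2 scale, and Lrrc75b and Igfbp4 had differences of -2.39 and -4.44. Klrd1 and Cd44 had CD8 differences of -0.12 and -0.32 that were not called (adjusted p = 0.70 and 0.26), and the difference between CD4 and CD8 cells was not tested. The 4 CD8 arrays share the variance estimate of the model with the CD4 arrays.

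**Figure D2:**
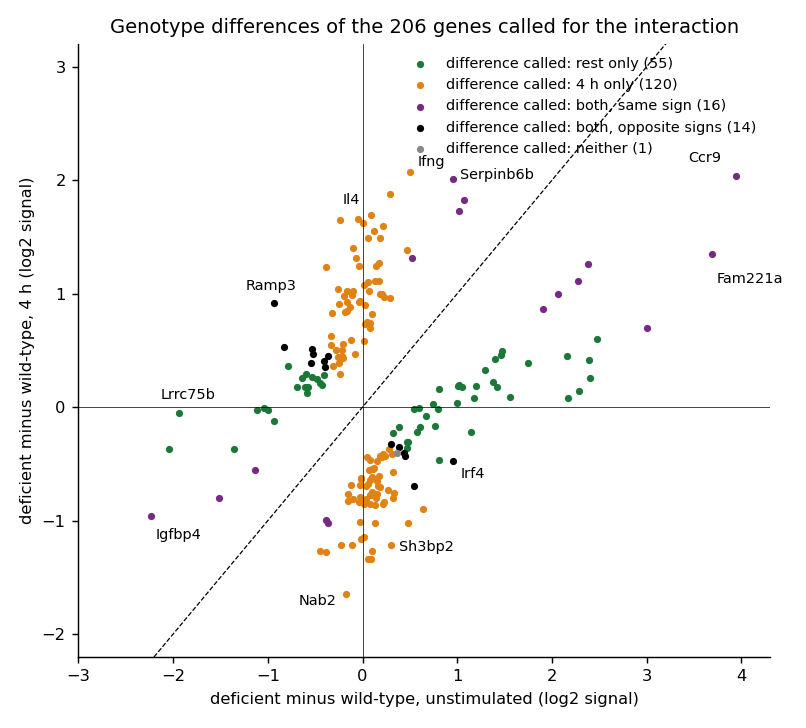
Deficient minus wild-type log2 signal in unstimulated (horizontal axis) and stimulated CD4 cells (vertical axis) for the 206 genes called for the interaction, coloured by the times at which the genotype difference itself was called. Genes along the vertical axis differed at 4 h only (120), and genes along the horizontal axis differed at rest only (55). The dashed line marks equal differences, where the interaction is 0.

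Mxd1 was 1 of the genes that diverged at 4 h with a positive interaction. It encodes a MAX partner that opposes MYC at its target genes. Its signal was 5.84, 5.78 and 5.66 at rest and 7.21, 6.92 and 7.30 at 4 h in the wild type, against 5.76, 6.16 and 6.00 and then 8.77, 8.70 and 8.74 with Tsc1 deleted. The resting groups overlapped and the stimulated groups lay apart. Mxd1 rose 2.61-fold in wild-type and 6.79-fold in deficient cells, an interaction of 1.38 ± 0.16 (adjusted p = 0.000471). With its 3 probe sets averaged, the Mxd1 value was 0.83 (adjusted p = 0.0193). It was the 1 called gene of 8 measured in the Myc network, and Myc itself had an interaction of 0.36 (adjusted p = 0.598).

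Plagl1, a zinc finger gene linked to cell cycle arrest, was at 3.01 to 3.45 on all 6 unstimulated arrays. It reached 6.95, 7.15 and 6.85 in stimulated wild-type cells, against 8.35, 9.30 and 8.26 in stimulated deficient cells. The interaction was 1.71 ± 0.30 (adjusted p = 0.00831). The resting means lay below the table's median signal, so the size of the induction itself was not measured. With its 2 probe sets averaged, the Plagl1 call was lost (adjusted p = 0.0726). The probe set not used in the main fit had a mean of 2.63 over 16 arrays, below the table's median signal. Ramp3, a subunit that modifies receptors of the calcitonin family, differed at both times in opposite directions. It was lower at rest in deficient cells (5.0, 4.95 and 5.24 against 5.97, 6.05 and 5.98). At 4 h it was 9.57, 9.73 and 8.49, against 8.09, 8.51 and 8.44 in wild-type cells. Its interaction was 1.85 ± 0.34 (adjusted p = 0.0127), corresponding to an 18.3-fold and a 5.09-fold increase. C9orf72, which encodes a regulator of membrane traffic and autophagy, rose 4.94-fold in deficient and 1.61-fold in wild-type cells (1.62 ± 0.32, adjusted p = 0.0185). Its call was lost without unstimulated wild-type replicate 3 or unstimulated deficient replicate 2 (adjusted p up to 0.0517).

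The called cytokine genes had this direction as well. Of 22 measured cytokines and TNF ligands, 4 were called, all with a positive interaction (Il4, Ifng, Csf2 and Il5), compared with 0.544% of all genes, and the median interaction of the 22 was 0.45, against -0.01 for all genes. Il4, which drives the T helper 2 programme, was 2.09 to 2.45 at rest in both genotypes. It was 3.55, 2.71 and 2.81 in stimulated wild-type cells, against 4.54, 4.94 and 4.66 in stimulated deficient cells, so the stimulated groups did not overlap (interaction 1.60 ± 0.26, adjusted p = 0.00584). Both resting means and the stimulated wild-type mean of 3.02 lay below the table's median signal, so the size of the Il4 interaction was not measured. With values floored at that median it was 1.29 (adjusted p = 0.000238). Ifng, the T helper 1 cytokine, was 2.78 to 2.87 at rest and 5.0, 4.03 and 4.74 at 4 h in wild-type cells. In deficient cells it was 3.06, 3.18 and 3.74 and then 6.49, 6.35 and 7.14, above the stimulated wild-type arrays. The interaction was 1.58 ± 0.32 (adjusted p = 0.024), from resting means below the table's median signal. The Ifng call was lost without any 1 of the 3 unstimulated wild-type arrays, stimulated wild-type replicate 2, or unstimulated deficient replicates 1 or 2 (adjusted p up to 0.0748).

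Il5 and Csf2, encoding an eosinophil growth factor and GM-CSF, were near the table's median signal. Stimulated deficient arrays read 3.13, 3.52 and 3.50 for Il5, and each of the other 9 arrays read between 2.38 and 2.61. Csf2 was 3.63, 4.53 and 3.78 on stimulated deficient arrays and at most 2.85 elsewhere. Their interactions were 0.88 ± 0.16 (adjusted p = 0.0144) and 1.10 ± 0.25 (adjusted p = 0.04). Both calls were lost when values were floored at the table median, and that of Csf2 with the CD4 arrays fitted alone (adjusted p = 0.0654) and in 9 of the 12 fits that left out 1 array (adjusted p up to 0.102). Of 11 chemokines, Ccl1 was called (1.12 ± 0.26, adjusted p = 0.047), and its call was lost in 8 of the 12 fits (adjusted p up to 0.129) and under quantile normalization (adjusted p = 0.0507), median centring (0.0521) and the CD4 arrays alone (0.0747). Regulatory T cell markers, which can accompany a change in cytokine production, averaged 5.90 to 6.08 over 8 genes on stimulated wild-type and 6.32 to 6.41 on stimulated deficient arrays. None of the 8 was called, and their part in the cytokine values was not tested.

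Receptors and feedback inhibitors of cytokines gave 2 calls among 18 genes, both positive, compared with 0.544% of all genes. The median of the 18 was 0.44, against -0.01 for all genes. Cish, a STAT5-induced inhibitor of cytokine receptor signalling, was 5.70 to 6.12 across both resting groups. It was 6.93, 7.02 and 7.20 in stimulated wild-type cells, against 8.26, 8.09 and 7.72 in stimulated deficient cells (1.17 ± 0.18, adjusted p = 0.00348). The increase was 1.98-fold and 4.45-fold. Il18r1, a chain of the interleukin-18 receptor, fell in both genotypes and was already 2.20-fold lower in resting deficient cells. It fell 3.78-fold in wild-type and 2.52-fold in deficient cells (0.59 ± 0.13, adjusted p = 0.0371), and its call was lost in 9 of the 12 fits (adjusted p up to 0.112). A positive interaction here meant a shallower fall and not an induction.

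Ccdc69 and Tnfsf10 were other genes whose repression was shallower. Tnfsf10, the death ligand TRAIL, was 5.67 to 6.36 at rest over both genotypes and fell to 3.07, 3.26 and 3.72 in wild-type but to 4.77, 4.63 and 4.87 in deficient cells (1.5 ± 0.23, adjusted p = 0.00439). With its 3 probe sets averaged, the Tnfsf10 value was 0.75 (adjusted p = 0.0455). Ccdc69 fell 28.5-fold in wild-type and 10.6-fold in deficient cells (1.43 ± 0.18, adjusted p = 0.00084). The sign of the Ccdc69 interaction depends on the scale. On linear signal its fall was larger in deficient cells, where its mean resting signal was 0.12 higher on the log2 scale, and the linear sign differed from the log2 sign for 5 of the 206 genes. With its 3 probe sets averaged, the Ccdc69 call was lost (adjusted p = 0.0903).

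**Figure D3:**
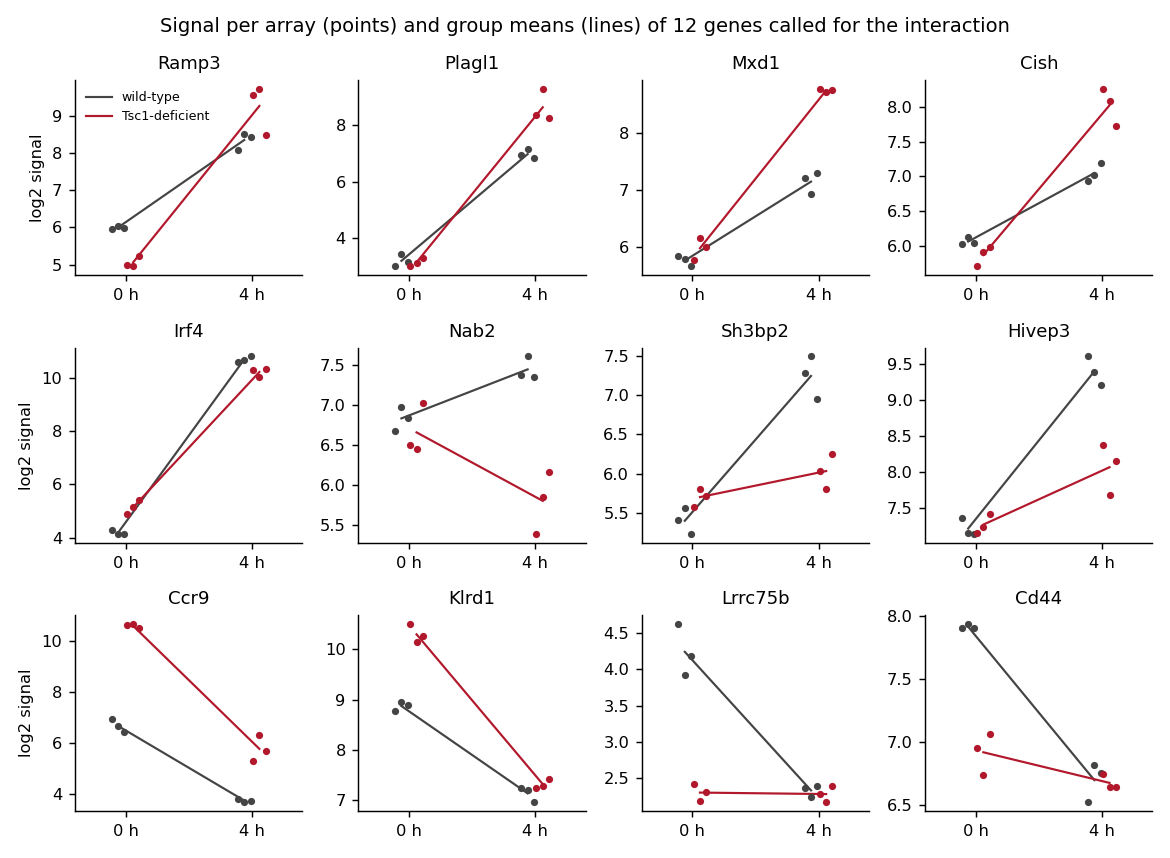
Log2 signal of 12 genes called for the interaction, with 1 point per array (3 per group), wild-type in grey and Tsc1-deficient in red, and lines joining the group means at 0 h and 4 h. Each panel has its own vertical range. Mxd1, Plagl1, Nab2, Sh3bp2 and Hivep3 diverged at 4 h from similar resting levels, whereas Klrd1, Lrrc75b and Cd44 started apart and met.

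A smaller set of genes was induced less in deficient cells. Irf4, a transcription factor induced in proportion to receptor signalling, was the most strongly induced gene of the wild-type cells. It was 4.28, 4.13 and 4.14 at rest and 10.60, 10.68 and 10.81 at 4 h in the wild type. Deficient arrays read 4.87, 5.14 and 5.41 and then 10.32, 10.03 and 10.33. They were all higher at rest and all lower at 4 h. Irf4 rose 91.4-fold in wild-type and 34.0-fold in deficient cells, an interaction of -1.43 ± 0.19 (adjusted p = 0.00137). With its 2 probe sets averaged, the Irf4 value was -0.81 (adjusted p = 0.0086). The resting difference of 0.96 contributed more to this value than the difference of -0.47 at 4 h. Irf4 was the 1 called gene among 32 immediate early and activation transcription factors, whose median interaction was 0.17. Egr1 and Egr2 had interactions of -0.61 (adjusted p = 0.17) and -0.25 (adjusted p = 0.76).

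Nab2, a corepressor of EGR factors that EGR factors themselves induce, responded in opposite directions. Wild-type arrays read 6.68, 6.98 and 6.85 at rest and 7.38, 7.61 and 7.36 at 4 h. Deficient arrays read 6.5, 6.45 and 7.03 and then 5.39, 5.86 and 6.17. The resting groups overlapped, and at 4 h Nab2 was 3.13-fold lower in deficient cells (interaction -1.47 ± 0.25, adjusted p = 0.00789). It was the only member called among 15 MAP kinase and EGR feedback inhibitors. Sh3bp2, a signalling adaptor, rose 3.61-fold in wild-type cells (5.41, 5.55 and 5.23 to 7.29, 7.50 and 6.96). In deficient cells its change from 5.58, 5.80 and 5.72 to 6.03, 5.81 and 6.25 was not called (interaction -1.52 ± 0.21, adjusted p = 0.00137).

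Hivep3, a large zinc finger protein, rose 4.56-fold in wild-type and 1.74-fold in deficient cells (-1.39 ± 0.23, adjusted p = 0.00584), and its call was lost with its 5 probe sets averaged (adjusted p = 0.112). Pdcd1lg2, the PD-1 ligand PD-L2, was higher at rest in deficient cells (4.41, 4.69 and 4.84 against 3.80, 3.95 and 3.77). It rose to 5.19, 5.64 and 5.34 in wild-type cells, and its change in deficient cells was not called (adjusted p = 0.189), so its interaction of -1.28 ± 0.21 (adjusted p = 0.00584) came mostly from the resting difference of 0.81. Rcan3, a regulator of calcineurin, rose 2.0-fold in wild-type cells, while in deficient cells it was 7.39 to 7.5 at rest and 6.86, 7.45 and 7.51 at 4 h (-1.16 ± 0.25, adjusted p = 0.0295). Its call was lost in 7 of the 12 fits that left out 1 array (adjusted p up to 0.0921).

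Some transcripts of the receptor apparatus had a negative interaction. Of 23 genes of T cell receptor signalling, 4 were called, all negative (Ptpn6, Cd3g, Nfatc1 and Lcp2), compared with 0.661% of all genes, and the median of the 23 was -0.15, against -0.01 for all genes. At 4 h 7 of the 23 were called lower in deficient cells and 0 higher, compared with 3.86% and 5.59% of all genes. Cd3g, a receptor complex subunit, was 11.73 to 11.82 on all 6 unstimulated arrays. It fell to 10.33, 10.52 and 10.29 in wild-type and to 9.56, 9.49 and 9.60 in deficient cells (-0.84 ± 0.12, adjusted p = 0.00193), a 2.59-fold and a 4.65-fold fall. The subunits Cd3d and Cd3e had interactions of -0.35 and -0.16 that did not pass the test (adjusted p = 0.23 and 0.82).

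Ptpn6, the SHP-1 phosphatase that dampens receptor signalling, was 9.57 to 9.77 at rest. It fell to 8.28, 8.82 and 8.53 in wild-type and to 7.19, 7.34 and 7.62 in deficient cells (-1.15 ± 0.18, adjusted p = 0.00513). Lcp2, the adaptor SLP-76, had an interaction of -0.66 ± 0.13 (adjusted p = 0.0168), lost without unstimulated wild-type replicate 1, stimulated wild-type replicate 2 or unstimulated deficient replicate 2 (adjusted p up to 0.0534). Its wild-type response was not called, so this was a fall in deficient cells only by these calls. Nfatc1, a transcription factor activated by calcineurin, had one of -0.68 ± 0.16 (adjusted p = 0.0497), and its call was lost in 11 of the 12 fits (adjusted p up to 0.138) and with the Gapdh difference as a covariate (adjusted p = 0.0737). With its probe sets averaged, the Nfatc1 value was -0.66 (adjusted p = 0.0085).

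Surface molecules went both ways. Of 20 activation and costimulatory molecules, 3 were called with a negative interaction (Cd27, Cd28 and Cd5), compared with 0.661% of all genes. Another 2 were called with a positive one (Cd200 and Cd44), compared with 0.544%. The median of the 20 was -0.03, against -0.01 for all genes. Cd27, a costimulatory TNF receptor of naive cells, fell 1.69-fold in wild-type and 3.09-fold in deficient cells from equal resting levels (-0.87 ± 0.15, adjusted p = 0.00852). Cd28 had an interaction of -0.78 ± 0.18 (adjusted p = 0.0421) and Cd5, an inhibitory coreceptor, of -0.74 ± 0.16 (adjusted p = 0.0386), and they were lost in 10 and 11 of the 12 fits (adjusted p up to 0.122 and 0.101). The Cd28 call was also lost with the Gapdh difference as a covariate (adjusted p = 0.0675), and the Cd5 call with that covariate and with the CD4 arrays alone. With its probe sets averaged, the Cd28 value was -0.85 (adjusted p = 0.00294). Cd28 rose 1.43-fold in wild-type cells and did not fall there. Cd2, an adhesion receptor, had one of -0.93 ± 0.19 (adjusted p = 0.0203) and was lost in 6 of the 12 fits (adjusted p up to 0.0683). Cd3g, Cd5, Cd28 and Cd2 are also 4 of the 10 CD4 T cell markers, whose mean was 10.40 to 10.50 over all unstimulated arrays. At 4 h that mean was 9.30 to 9.56 in wild-type and 8.98 to 9.29 in deficient cells. Cd4 itself had an interaction of 0.17 (adjusted p = 0.89). The part of a lower level of T cell transcripts as a whole in these values was not tested.

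The other pattern was a resting difference that was smaller or no longer called after stimulation. Fam221a had the most negative interaction. It was 4.70 to 4.96 on all 6 wild-type arrays, stimulated or not. In deficient cells it was 8.43, 8.52 and 8.53 at rest and 5.71, 6.57 and 6.33 at 4 h. The 12.9-fold resting difference had narrowed to 2.55-fold at 4 h (interaction -2.34 ± 0.23, adjusted p = 0.000345). Hpgds, the haematopoietic prostaglandin D synthase, and Patl2, an RNA-binding protein, also had higher resting levels in deficient cells (-2.31 ± 0.26 and -2.15 ± 0.30, adjusted p = 0.000396 and 0.0017). Patl2 was 6.08, 6.01 and 6.11 in resting deficient cells and between 3.59 and 4.05 on the other 9 arrays. Its stimulated levels were 3.70, 3.69 and 3.91 in the wild type, against 4.00, 4.05 and 4.03 in deficient cells, a difference that was not called.

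Ccr9, the receptor for the gut and thymus chemokine CCL25, was 6.94, 6.65 and 6.41 at rest and 3.80, 3.67 and 3.71 at 4 h in the wild type. Deficient arrays read 10.63, 10.67 and 10.52 and then 5.27, 6.32 and 5.69. Deficient cells were higher at both times, by 15.4-fold and then 4.10-fold, so the steeper fall (-1.91 ± 0.27, adjusted p = 0.00193) did not bring them to the wild-type level. The stimulated wild-type arrays lay close to the table's median signal, which limits the measure of the wild-type fall. Averaging its probe sets gave Ccr9 a value of -2.30 (adjusted p = 1.97e-05). Ccr9 and S1pr1 were the 2 called genes among 20 of naive T cell quiescence and homing, both negative, compared with 0.661% of all genes. S1pr1, the receptor for exit from lymphoid organs, did not differ by call at rest. At 4 h it was 10.35, 10.05 and 9.81 in the wild type, against 8.75, 8.85 and 8.77 in deficient cells (-0.89 ± 0.20, adjusted p = 0.0371). The S1pr1 call was lost in 11 of the 12 fits (adjusted p up to 0.0989) and with the Gapdh difference as a covariate (adjusted p = 0.0612).

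Klrd1 encodes CD94, a lectin-like receptor of NK and some T cells, and was called for the interaction among 20 effector, memory and cytotoxic genes. It was 8.78, 8.94 and 8.89 in resting wild-type cells, against 10.49, 10.13 and 10.25 in resting deficient cells. At 4 h the groups met at 7.24, 7.21 and 6.97 and 7.24, 7.29 and 7.43 (-1.24 ± 0.15, adjusted p = 0.000723). NK and NKT cell markers averaged 3.28 to 3.59 over 8 genes in resting wild-type and 3.82 to 3.87 in resting deficient cells, and 2.93 to 3.07 and 3.04 to 3.37 at 4 h. None of the 8 was called for the interaction, and their part in the Klrd1 values was not tested. Kif23, a kinesin of cytokinesis, was 6.48, 6.29 and 6.03 in resting deficient cells and 3.88, 3.66 and 3.83 in resting wild-type cells. It was 2.24, 3.68 and 3.12 and 2.42, 2.39 and 2.42 at 4 h (-1.87 ± 0.36, adjusted p = 0.0168). Its call was lost without unstimulated wild-type replicate 2 or unstimulated deficient replicate 1 (adjusted p up to 0.0526), and with its 2 probe sets averaged the Kif23 value was -0.89 (adjusted p = 0.0111). The Kif23 probe set not used in the main fit had a mean of 2.73, below the table's median signal. The other 25 of 26 mitosis genes were not called, and the list's median interaction was 0.07.

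Genes that were low in resting deficient cells formed the mirror image. Lrrc75b was 4.62, 3.92 and 4.18 in resting wild-type cells and between 2.18 and 2.42 on the other 9 arrays, below the table's median signal (1.88 ± 0.21, adjusted p = 0.000396). With values floored at that median the Lrrc75b value was 0.88 (adjusted p = 0.0395). Its positive interaction was the loss, in wild-type cells, of a signal that deficient cells lacked from the start. Cd44, the hyaluronan receptor whose surface protein marks activated and memory cells, was 7.90, 7.93 and 7.90 in resting wild-type cells, against 6.95, 6.73 and 7.06 in resting deficient cells. At 4 h it was 6.52, 6.81 and 6.75 and 6.74, 6.64 and 6.64 (0.97 ± 0.17, adjusted p = 0.0105), and with its 4 probe sets averaged the call was lost (adjusted p = 0.0726).

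Sgk1, a kinase activated through mTORC2, was 9.33, 8.91 and 9.06 in resting wild-type cells, against 8.17, 8.28 and 8.47 in resting deficient cells. It fell 4.60-fold and 2.06-fold, to 6.96, 6.90 and 6.84 in the wild type, against 6.96, 7.57 and 7.26 in deficient cells, a difference that was not called (1.16 ± 0.19, adjusted p = 0.00678). Igfbp4, which binds insulin-like growth factors, was lower in deficient cells at both times. The difference was 4.72-fold at rest and 1.95-fold at 4 h (1.27 ± 0.28, adjusted p = 0.0371), and the Igfbp4 call was lost in 8 of the 12 fits (adjusted p up to 0.107) and with the CD4 arrays alone (adjusted p = 0.0546). With its probe sets averaged, the Igfbp4 value was 1.55 (adjusted p = 0.00219).

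In 7 lists grouped here, several of them of pathways tied to mTORC1, no gene was called for the interaction. The same held for 3 lists outside this group: 12 NF-kB genes, 14 G1 cyclins and CDK inhibitors, and 19 heat shock proteins and chaperonins. The values that follow are for the 7. None passed among 24 mTOR pathway genes, 19 of glycolysis, 24 ATF4 targets and tRNA synthetases, 24 of sterol and fatty acid synthesis, 25 of lysosome and autophagy, 24 of oxidative phosphorylation and 29 of DNA replication. Their median interactions ran from -0.18 for DNA replication to 0.25 for glycolysis, against -0.01 for all genes. At the 1.2% called over all genes few calls would fall in lists of this length, and 28 of their 168 different genes (16.7%) had an unadjusted p under 0.05, compared with 11.8% of all genes (limma). With probe sets averaged, 1 glycolysis gene was called in each direction and 1 mTOR pathway gene with a negative sign. The nearest single genes were the glycolytic enzyme Tpi1 (0.73 ± 0.17, adjusted p = 0.0511) and the cell cycle inhibitor Cdkn1a, 1 of 14 G1 regulators (1.38 ± 0.33, adjusted p = 0.0552). Tpi1 fell 2.38-fold in wild-type and 1.44-fold in deficient cells. Cdkn1a rose 2.41-fold and 6.25-fold. With probe sets averaged, both passed (adjusted p = 0.0103 for Tpi1 and 0.0427 for Cdkn1a), as they did with dim genes left out (0.0389 and 0.0492), the intensity trend and robust prior (0.0313 and 0.0364) and array weights (0.034 and 0.0448). Some of the 7 lists nonetheless differed by genotype at both times. Of the lysosome and autophagy genes, 15 were called higher in deficient cells at rest and 16 at 4 h. The counts were 13 and 12 for sterol and fatty acid synthesis and 8 and 11 for the ATF4 list, compared with 3.96% and 5.59% of all genes. No gene of the lysosome, sterol or ATF4 lists was called lower. Among mTOR pathway genes 4 were higher and 2 lower at rest. Cyp51, a sterol synthesis enzyme, was 2.45-fold higher in deficient cells at rest and 1.52-fold higher at 4 h, with an interaction of -0.68 that did not pass (adjusted p = 0.131). Of 21 ribosome biogenesis genes, Wdr12 was called. It was 2.06-fold higher at rest in deficient cells and 1.13-fold higher at 4 h (-0.87 ± 0.17, adjusted p = 0.0191), with the call lost in 4 of the 12 fits (adjusted p up to 0.063).

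Of 19 genes of the BCL-2 family and apoptosis, 2 were called, compared with 1.2% of all genes. The 2 had opposite signs, and both encode BH3-only killer proteins. Bcl2l11 (BIM) was 9.74 to 9.95 at rest. It was 10.91, 11.11 and 11.01 in stimulated wild-type cells, against 12.09, 11.83 and 11.57 in stimulated deficient cells (0.72 ± 0.16, adjusted p = 0.0371). Bbc3 (PUMA) was 6.39, 6.49 and 6.35 in stimulated wild-type cells, against 5.49, 5.62 and 5.83 in stimulated deficient cells (-0.92 ± 0.18, adjusted p = 0.019). Neither differed by call at rest. The Bcl2l11 call was lost in 10 and the Bbc3 call in 4 of the 12 fits (adjusted p up to 0.0926 and 0.0623), and that of Bcl2l11 with the CD4 arrays alone (adjusted p = 0.0556).

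**Figure D4:**
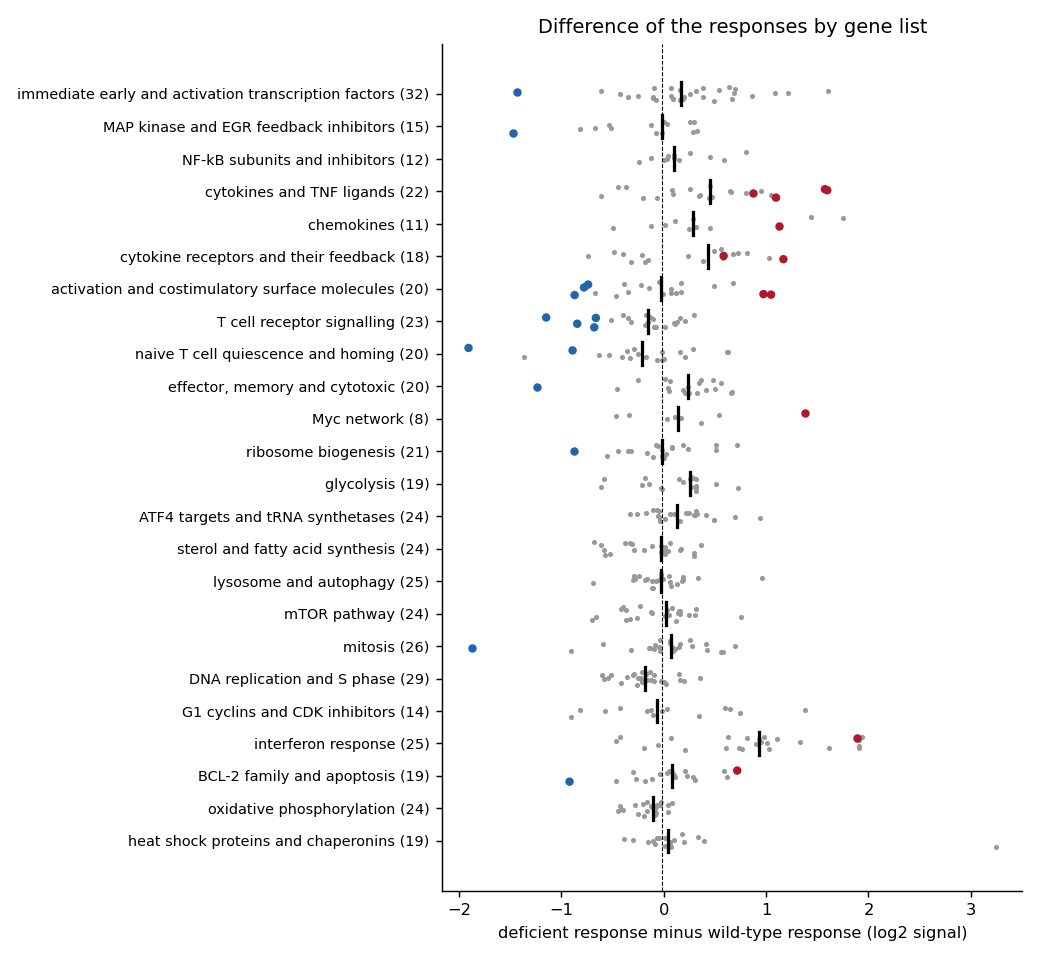
Interaction (deficient response minus wild-type response, log2 signal) of each measured gene in 24 gene lists, with the number of genes in brackets. Large coloured points are genes called at an adjusted p under 0.05, red positive and blue negative, grey points are not called, the black bar is the list's median and the dashed line the median of all genes. The interferon response list has the highest median, 0.93, and 1 called gene.

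Interferon response genes had the highest median interaction of the lists, 0.93 over 25 genes. The estimate was positive for 21 of the 25, compared with 47.6% of all genes, and 16 had an unadjusted p under 0.05 with a positive sign, compared with 5.45% of all genes. After adjustment over all genes only Usp18 passed, an interferon-induced protease that removes ISG15 and limits interferon signalling. Usp18 was 8.68, 8.22 and 7.82 at rest and 6.82, 7.02 and 7.97 at 4 h in the wild type, against 7.97, 8.15 and 7.88 and then 9.50, 8.51 and 8.75 without Tsc1 (1.89 ± 0.42, adjusted p = 0.0383). The resting groups overlapped, and the stimulated deficient arrays were all above the stimulated wild-type arrays. The Usp18 call was lost in 8 of the 12 fits that left out 1 array (adjusted p up to 0.116). It was also lost with the Gapdh difference as a covariate (adjusted p = 0.0733) and without both arrays with a high Gapdh difference (0.0684). Array weights (0.0551), the intensity trend and robust prior (0.113) and values floored at the table median (0.055) ended it too. So did fitting arrays with consecutive serial numbers in their titles as fixed blocks (0.0916). Among the 25 genes the wild-type response was called lower for 9 and higher for 4, compared with 19.1% and 12.8% of all genes. The deficient response was called lower for 2 and higher for 12, compared with 21.5% and 13.8%. At rest 2 of the 25 differed by genotype and at 4 h 11, all higher in deficient cells. Over all genes 3.96% were called higher at rest and 5.59% at 4 h.

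Ifit3, an antiviral effector, was 9.24, 8.19 and 7.59 in resting and 6.94, 7.37 and 8.26 in stimulated wild-type cells. In deficient cells it was 8.11, 8.44 and 7.64 and then 9.50, 8.69 and 9.35. Its interaction of 1.94 did not pass after adjustment (adjusted p = 0.11), nor did those of Cmpk2 (1.91, adjusted p = 0.083), a mitochondrial nucleotide kinase, and Rsad2 (1.90, adjusted p = 0.14), the antiviral enzyme viperin. The arrays of 1 group differed widely for these genes: the mean over the 25 was 8.01, 7.51 and 7.11 on the resting wild-type arrays. It was 7.14, 7.14 and 7.79 in stimulated wild-type, 7.44, 7.70 and 7.31 in resting deficient and 8.42, 7.84 and 8.27 in stimulated deficient cells. The resting groups overlapped and the stimulated groups did not. Without stimulated deficient replicate 1, the array with the high Gapdh difference, no gene of the list was called and its median was 0.74. Irf1 and Gbp2, which receptor stimulation induced in both genotypes, had interactions of -0.05 and -0.43.

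**Figure D5:**
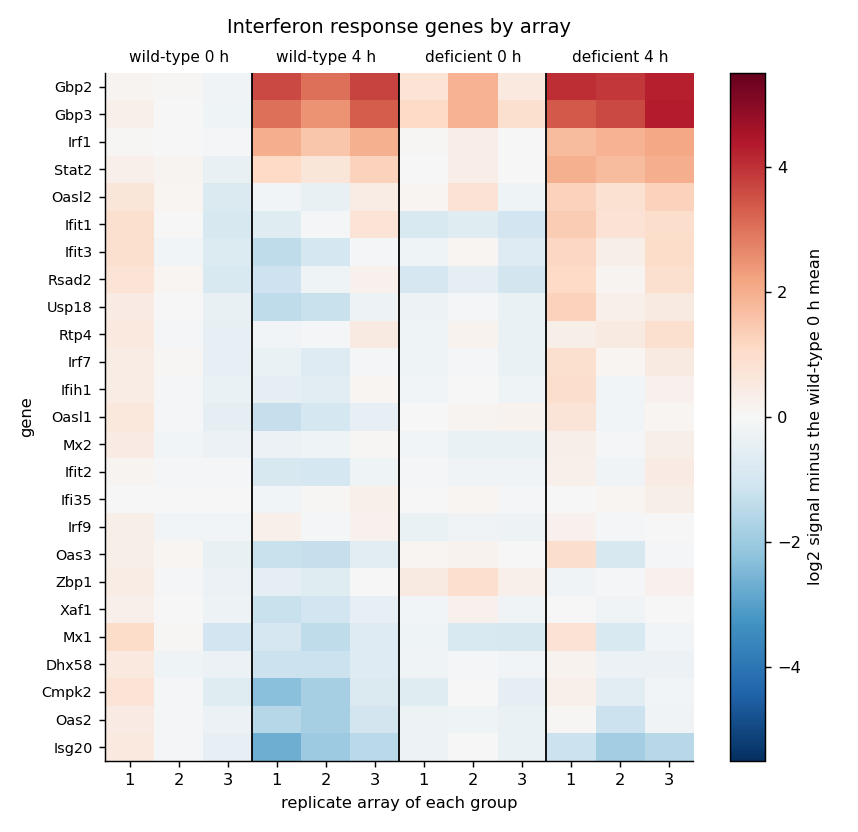
Log2 signal of 25 interferon response genes on the 12 CD4 arrays, each minus that gene's mean over the 3 unstimulated wild-type arrays, with red higher and blue lower. Columns are the 3 replicate arrays of each group. By group mean, 18 genes in stimulated deficient cells are at or above the resting wild-type level and 17 in stimulated wild-type cells at or below it, and replicates within a group differ in depth of colour.

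The promoters of the 3 members with the largest interactions are shown because many interferon-induced genes carry the interferon-stimulated response element, to which STAT and IRF complexes bind. The letters GAAA, any 2 bases, GAAA and their reverse complement (TTTC, any 2 bases, TTTC) were searched in the 250 bases before each start site of RefSeq promoters (GRCm38.p6), on both strands. They occurred in 978 of 32851 promoters (2.98%). Of the 25 interferon genes, 18 had a promoter entry and 7 of these held the letters. Counted by promoter, as for the 2.98%, 7 of the 24 entries of these genes held them. The windows run from base 170 to base 51 before the start and are written in the direction of transcription, with matches in capitals. Ifit3 lies at chr19:34583359-34583478 on the plus strand, Cmpk2 at chr12:26469045-26469164 on the plus strand and Rsad2 at chr12:26456503-26456622 on the minus strand.
Ifit3: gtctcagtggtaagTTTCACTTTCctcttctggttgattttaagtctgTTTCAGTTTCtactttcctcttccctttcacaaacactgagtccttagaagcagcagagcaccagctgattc
Cmpk2: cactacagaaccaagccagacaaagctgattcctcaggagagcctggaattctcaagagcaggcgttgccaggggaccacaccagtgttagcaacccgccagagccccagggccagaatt
Rsad2: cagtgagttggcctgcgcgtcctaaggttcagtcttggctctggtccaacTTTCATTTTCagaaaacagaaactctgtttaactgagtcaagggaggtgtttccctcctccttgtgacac
Ifit3 held 2 matches and Rsad2 held 1, all in the reverse-complement form, and the Cmpk2 window held none. The matches describe these letters and say nothing of which factor bound in these cells.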

How the data were processed

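RNA of sorted naive T cells was hybridised to Affymetrix arrays. The authors deposited log2 signal values, made with RMA in Partek 6.5 per the submitters' processing notes. A genome build was not needed for these values. RMA models background and normalizes between arrays, so a shift common to all genes cannot be seen. The number of arrays limits the precision. Of 45141 probe sets, 104 were controls, 28898 named 1 gene, 551 several and 15588 none in the platform annotation. Each of 17097 genes was read from its brightest single-gene probe set, by the mean of 16 arrays (7180 genes had several). Replicate arrays of a group correlated at 0.992 to 0.997.

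A model with a mean for each of 6 groups was fitted to all 16 arrays with limma 3.58.1 in R 4.3.3 (lmFit, contrasts.fit, eBayes; 10 residual degrees of freedom), tested on simulated data. Errors are standard errors of the contrast. Calls are at a Benjamini-Hochberg adjusted p under 0.05. Named genes are Tsc1, the 12 most positive and 12 most negative called genes with a group mean above the table median, the called members with the largest interaction in each list and response class, or an uncalled one where a list had none, and the 6 genes with the largest mean response each way. Genes printed outside this rule (Myc, Egr1, Egr2, Cd3d, Cd3e, Cd4, Cd8a, Cd8b1, Cd5, Lcp2, Il5, Ifit3, Cmpk2, Rsad2, Irf1 and Gbp2) were chosen after their values were seen. The members and the lists were chosen with earlier results of these data known. Consecutive serial numbers in the titles may pair the 0 h and 4 h arrays, which the labels do not state. Deviations of such arrays from their group means correlated at 0.05 to 0.11, positive but not above 0.1 for every pair. No other pairs were compared, so pairing was not settled. The main fit took the arrays as unpaired, and with the pairs as fixed blocks the interaction was called for 126 genes. Alternatives changed the probe set choice, filter, normalization, variance model, arrays, block and threshold.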

Additional observations from a re-analysis of the deposited data

Results flagged for a closer look

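Each gene here was called because its response to stimulation differed between the genotypes in a direct test of that difference (limma, adjusted p under 0.05); the values are deficient minus wild-type responses in log2 signal. Positive values among transcription, signalling and surface genes were Ramp3 1.85, Plagl1 1.71, C9orf72 1.62, Mxd1 1.38, Spsb1 1.36, Sgk1 1.16, Cd200 1.05, Cd44 0.97, Bcl2l11 0.72 and Itgb3 0.75. Those of cytokines, their receptors and interferon genes were Usp18 1.89, Il4 1.60, Ifng 1.58, Tnfsf10 1.5, Cish 1.17, Ccl1 1.12, Csf2 1.10 and Il18r1 0.59. Others with a positive value were Lrrc75b 1.88, A530021J07Rik 1.67, Serpinc1 1.62, Tlcd2 1.59, Ccdc69 1.43, Suv39h2 1.43, H3c14 1.38, Zdhhc21 1.30, Igfbp4 1.27, Mov10 1.19, H3c1 1.10, Serpinb6b 1.05, Slc16a5 1.03 and Clic4 0.80.

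Negative values among T cell signalling, surface and transcription genes were Ccr9 -1.91, Sh3bp2 -1.52, Nab2 -1.47, Irf4 -1.43, Hivep3 -1.39, Pdcd1lg2 -1.28, Klrd1 -1.24, Rcan3 -1.16, Ptpn6 -1.15, Cd2 -0.93, Bbc3 -0.92, S1pr1 -0.89, Cd27 -0.87, Cd3g -0.84, Cd28 -0.78 and Nfatc1 -0.68. Others with a negative value were Fam221a -2.34, Hpgds -2.31, Patl2 -2.15, Adipoq -2.14, 4933430I17Rik -2.09, Trpm1 -1.98, Kif23 -1.87, Pgpep1l -1.70, Tbc1d30 -1.54, Ncmap -1.49, Etfrf1 -1.24, Mcts1 -0.88, Wdr12 -0.87 and Smim4 -0.77. Of these 62 genes, 38 kept their call in each of the 12 fits that left out 1 CD4 array and 24 lost it in at least 1. Of the 38, 7 lost it with probe sets averaged, among them Spsb1 (0.51, adjusted p = 0.113) and Etfrf1 (-0.78, adjusted p = 0.134), as did Itgb3 (0.63, adjusted p = 0.172). Averaging gave Trpm1 -1.15 and Suv39h2 0.65, and flooring at the table median gave Adipoq -1.36 and 4933430I17Rik -0.91, all still called. Clic4 and Smim4 lost their calls with the Gapdh difference as a covariate (adjusted p = 0.0589 and 0.0517). With arrays of consecutive title serials as fixed blocks, the calls of Usp18 (adjusted p = 0.0916), Tlcd2 (0.0651), Ccl1 (0.108), Il18r1 (0.0937) and Cd200 (0.0738) were lost. So were those of Nfatc1 (0.0915), S1pr1 (0.0662), Bcl2l11 (0.0647), Cd2 (0.0577) and Cd28 (0.0525). Itgb3 (0.0772), Clic4 (0.0836), Suv39h2 (0.0578) and Smim4 (0.0547) lost theirs as well. S100a8, not called in the main fit, passed under these blocks (0.0288).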

How the results depend on the processing

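No called gene reversed its log2 sign under the alternatives with 1 value per gene, which tested all 206, or 183 with dim genes left out and 202 with values floored. Of 164 other probe sets of 99 of the genes, 148 had the sign of the one used. Among the 116 of them with a mean above the table's median signal, 113 did. The number called (206, 93 higher and 113 lower) moved. It was 351 (157 and 194) with values floored at the table median, 351 (154 and 197) with array weights, and 325 (133 and 192) without the 2 arrays with a high Gapdh difference, where 183 of the 206 were shared. With the consecutive serials as a fixed replicate block it was 126 (54 and 72), of which 106 were shared, and as a random block 231, which held all 206; the genotype differences at 1 time cannot be estimated under the fixed block. Requiring a 2-fold difference left 78 (39 and 39). With probe sets averaged it was again 206, but 153 were shared. Leaving out 1 array gave 103 to 287 in all, 46 to 146 higher and 57 to 141 lower; beyond the 5 arrays named in the report, the higher count was 146 without stimulated deficient replicate 3 and the lower count 68 and 72 without unstimulated wild-type and deficient replicate 3. The genotype difference at rest (997) was 1937 with array weights, 1723 without the 2 arrays, 161 at 2-fold and 589 to 1348 with 1 array left out. That at 4 h (1616) was 2564 with all probe sets tested, 195 at 2-fold and 1062 to 1715 with 1 array left out. The wild-type and deficient responses (5451 and 6041) were 12112 and 13683 with all probe sets tested and 1526 and 1876 at 2-fold. The Ccdc69 interaction was -6.32 on linear signal. Except where the alternative itself changes how many genes, arrays or folds enter, the cause was not tested. Signals near the table median limit the low cytokines, and 62 genes were called in every setting.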

Other observations

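Replication-dependent histone genes, singled out after their values were seen, numbered 15 measured genes. Of these, 4 were called, all positive (H3c14 1.38, H2bc4 1.30, H3c1 1.10 and H2bc22 1.10), compared with 0.544% of all genes, and 4 had a negative estimate, among them H3c4 (-0.31) and H4c9 (-0.43). The median of the 15 was 0.56. H3c14 was 5.12, 5.35 and 5.01 in stimulated wild-type cells and between 6.25 and 6.63 on the other 9 arrays. Histone genes have near-identical copies that a probe set may not tell apart, and the H3c14 call was lost with its probe sets averaged (adjusted p = 0.151). The H3c14 probe set not used in the main fit had a mean of 3.33, just below the table's median signal, and an interaction of -0.43.

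Hspa1b, an inducible heat shock protein, had the largest interaction of all genes, 3.25 ± 1.36, and was not called (adjusted p = 0.351). It was 3.42 on unstimulated deficient replicate 1 and 7.97 and 8.18 on the other arrays of that group.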
